A study of Mus musculus with 30 samples.

Results

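The S100 genes S100a6, S100a10, S100a11, S100a4 and S100a1, the annexin genes Anxa1, Anxa2, Anxa5 and Anxa6, and the scaffold gene Ahnak were followed across 3 pools of spinal motoneurons of the adult mouse. The members were chosen by gene symbol in the array annotation, and they were proposed with results of these arrays in view, since S100a6 and Anxa1 stood out between visceral and somatic motoneurons. Of the 10 genes listed, 9 had a probe set of their own, and these 9 genes had 14 probe sets, out of 8251 genes and 12422 probe sets in all. The only probe set of S100a11 carried several gene symbols, so no value is given for it. Anxa1 and S100a1 had 3 probe sets each, S100a10 had 2 and the others had 1. The probe set with the highest mean stands for a gene unless another is named.

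The IML pool held motoneurons of the intermediolateral column, the visceral preganglionic neurons. The LMN and MMN pools held lateral and medial somatic motoneurons, which drive skeletal muscle. All 3 pools came from each of the same 5 adult, sham-operated mice, so every group shared the sham operation, and no strain, age or sex is used here. Each animal's pool was 400 laser captures from the spinal cord, and its RNA was hybridised to 2 Affymetrix arrays after 2 rounds of amplification, which gave 30 arrays and 15 samples. The values below are log2 intensities, averaged over the 2 arrays of a sample, and n is a number of animals. A log2 difference of 1 doubles the intensity. Levels of different probe sets cannot be compared, because each binds with its own strength. The precision is limited by the number of animals.

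S100 proteins are small calcium sensors of the EF-hand type. On binding calcium most of them open a face that grips a partner protein. Annexins bind acidic phospholipids in a calcium-dependent way and gather at membranes during exocytosis, endocytosis and repair. The families meet in the complex of annexin A2 with S100A10, which binds the very large scaffold protein AHNAK under the plasma membrane. In the nervous system, S100A6, annexin A1 and AHNAK are known from meningeal, vascular and glial cells as well as from neurons. S100A10 is known from endothelium and from neurons too. In sensory neurons it carries the sodium channel encoded by Scn10a to the cell surface.

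The start-site regions of S100a6, Anxa1 and Ahnak, the 3 genes that were high in IML and low in LMN, are shown with that of Anxa2, whose pool means were close to each other, so that genes with like and unlike profiles can be read side by side. The sequences are RefSeq's on GRCm38.p6, from 250 bases before to 50 bases after the annotated start of the gene, read along its strand. RefSeq entries were matched for 8 of the 10 genes. Both strands were searched for 5 short motifs. They were the TATA box TATAAA, the box named CCAAT after its letters, the core GGGCGG that Sp1 binds, the site TGANTCA that AP-1 binds and the E-box CACGTG. Capitals mark each match, the matches did not overlap, and a match on the other strand appears as its reverse complement. The S100a6 window is chr3:90612644-90612943 on the plus strand, that of Anxa1 chr19:20390622-20390921 on the minus strand, that of Ahnak chr19:8989034-8989333 on the plus strand and that of Anxa2 chr9:69453433-69453732 on the plus strand.
S100a6: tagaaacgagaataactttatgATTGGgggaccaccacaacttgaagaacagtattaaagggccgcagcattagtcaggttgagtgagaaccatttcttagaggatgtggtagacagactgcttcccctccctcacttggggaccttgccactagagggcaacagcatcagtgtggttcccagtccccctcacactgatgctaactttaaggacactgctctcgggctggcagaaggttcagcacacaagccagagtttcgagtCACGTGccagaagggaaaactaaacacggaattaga
Anxa1: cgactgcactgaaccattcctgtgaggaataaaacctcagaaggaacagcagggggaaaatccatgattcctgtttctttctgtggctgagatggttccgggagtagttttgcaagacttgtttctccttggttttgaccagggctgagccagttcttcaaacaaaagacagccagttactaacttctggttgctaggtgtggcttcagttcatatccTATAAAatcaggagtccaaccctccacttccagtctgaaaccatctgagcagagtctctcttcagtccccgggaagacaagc
Ahnak: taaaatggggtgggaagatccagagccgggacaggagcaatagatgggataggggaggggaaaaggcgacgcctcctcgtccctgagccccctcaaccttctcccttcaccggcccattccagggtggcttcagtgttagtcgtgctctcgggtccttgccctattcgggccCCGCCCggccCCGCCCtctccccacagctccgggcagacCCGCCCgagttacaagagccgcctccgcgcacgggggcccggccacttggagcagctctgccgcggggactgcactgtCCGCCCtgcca
Anxa2: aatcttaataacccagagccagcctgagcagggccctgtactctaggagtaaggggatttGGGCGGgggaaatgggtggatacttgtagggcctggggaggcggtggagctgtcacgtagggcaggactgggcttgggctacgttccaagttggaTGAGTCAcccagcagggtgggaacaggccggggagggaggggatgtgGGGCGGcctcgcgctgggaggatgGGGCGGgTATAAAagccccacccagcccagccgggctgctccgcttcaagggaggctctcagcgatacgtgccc

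The windows of S100a6, Anxa1 and Ahnak shared none of the 5 motifs with one another. S100a6 held 1 CACGTG, which is in 7.15% of the 32851 windows of this length, and 1 CCAAT on the other strand, which is in 37.4% of them. Anxa1 held a TATA box 32 bases before the start (13.6% of all windows). Ahnak held 4 copies of GGGCGG, all on the other strand, in a window of 67.3% G and C against a median of 52.7%. At least 1 copy of GGGCGG is in 35.7% of all windows, and the other shares likewise count windows with at least 1 match. Anxa2 held a TATA box, 3 copies of GGGCGG and 1 TGANTCA, the last in 7.81% of all windows. A match is a run of letters and shows no binding.

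A pair of IML samples stood apart from the other IML samples, and each raised a different set of members. In the IML sample of animal 4, 48 of 8251 genes lay at least 1 log2 unit above the highest of the other 4 IML samples, and 3 of these were members, Anxa2, S100a6 and S100a10. The genes with the widest gap there were Fxyd2, a modulator of the sodium pump (11.34 against 5.91 to 7.27 in the other IML samples), and Scn10a (9.70 against 5.42 to 6.24). Nmb, Grik1 and Avil, all known from sensory ganglion neurons, came next. Ly86 (9.56 against 6.57 to 6.89), Slc7a7, Fam189b and Stbd1, which are not named here as sensory neuron genes, followed at ranks 6 to 9. Anxa2 was at rank 10 in that order, S100a6 at rank 14 and S100a10 at rank 23. In the IML sample of animal 3, 49 genes lay at least 1 unit above, among them Anxa1, at rank 12. The genes ahead of it included S100a8 (12.38 against 5.41 to 8.73), S100a9, Ngp, Camp and Ltf, which are known from neutrophils and bone marrow. They were not high in IML alone. Over the somatic samples S100a8 had a median of 5.65 and reached 9.78. S100a9 reached 9.23 there, Ngp 8.61, Camp 9.74 and Ltf 7.63. Hemgn, known from blood-forming cells, was at rank 1, Adipoq, known from fat cells, at rank 8 and Fap, known from fibroblasts, at rank 10. The other 3 IML samples had 4, 3 and 7 such genes and no member among them. These genes were named after their values were seen, and the part that other cells had in either sample was not tested.

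**Figure D1:**
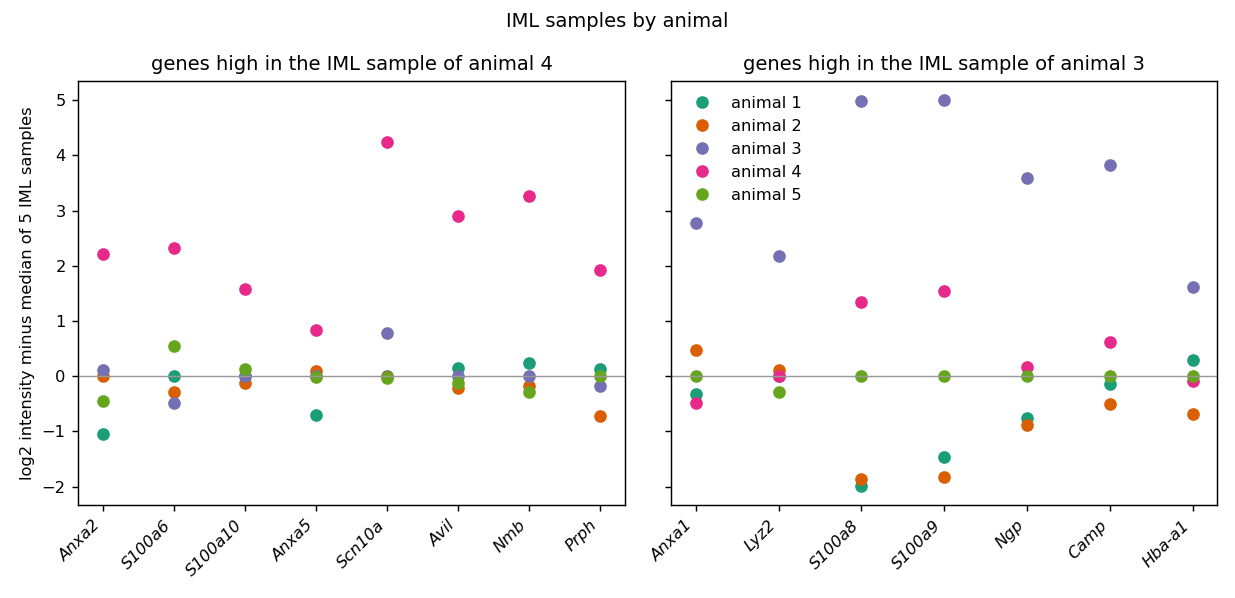
Log2 intensity of each IML sample minus the median of the 5 IML samples, for genes high in the IML sample of animal 4 (left) and of animal 3 (right). Points are animals. Animal 4 is the highest for Anxa2, S100a6, S100a10 and Anxa5 together with Scn10a, Avil, Nmb and Prph, and animal 3 is the highest for Anxa1 together with Lyz2, S100a8, S100a9, Ngp, Camp and Hba-a1.

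S100a6, Anxa1 and Ahnak were highest in IML, intermediate in MMN and lowest in LMN. S100a6, which binds calcium and, among other partners, the ubiquitin ligase adaptor encoded by Cacybp, read 8.76, 8.47, 8.28, 11.08 and 9.30 in the IML samples of animals 1 to 5. In LMN it read 7.32, 7.65, 6.56, 6.70 and 7.08, and in MMN 8.36, 8.95, 7.26, 7.47 and 8.04. Every IML sample lay above every LMN sample, whereas IML and MMN overlapped. The share of all probe sets with no overlap between IML and LMN is not given here. This and the like statements below are therefore descriptions only. S100a6 was higher in IML than in the mean of the somatic pools by 1.64 ± 0.39 (SE, n = 5), a 3.11-fold difference, and in 5 of 5 animals. The animals differed widely, from 0.17 in animal 2 to 4.00 in animal 4. Each SE here is that of a fit that takes 1 spread over all its pools, and intervals and calls use it. The differences of the 5 animals between IML and the somatic mean had an SD of 1.44 for S100a6 and 1.11 for Anxa1. For Ahnak the SD was 1.04 and for Anxa2 1.62. For these 4 genes the SE of the fit was narrower than the animals' differences alone would give. Without the IML sample of animal 4 the difference was 1.05 ± 0.20.

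Anxa1, a phospholipid-binding protein known for limiting inflammation, read 7.65, 8.44, 10.74, 7.48 and 7.97 in the IML samples of animals 1 to 5. In LMN it read 6.05, 7.45, 6.44, 5.47 and 6.33, and in MMN 7.13, 8.70, 8.37, 6.66 and 7.21. IML and LMN did not overlap, by a margin of 7.48 in the lowest IML sample against 7.45 in the highest LMN sample, and IML and MMN did. At the Anxa1 probe set next in brightness IML and LMN overlapped, with 7.44 in the lowest IML sample and 7.50 in the highest LMN sample. The difference between IML and the somatic mean was 1.48 ± 0.31 (SE, n = 5), positive in 5 of 5 animals and widest in animal 3, where it was 3.34. Both arrays of that IML sample were high, at 10.67 and 10.82. Without the sample the difference was 1.01 ± 0.17. The probe set is of a kind that can bind related transcripts, as is the one next in brightness, which differed by 1.51 ± 0.30 in the same direction. The dimmest Anxa1 probe set differed by 0.68 ± 0.24, also in that direction.

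Ahnak read 10.64, 11.00, 11.61, 11.34 and 11.79 in IML, 9.02, 10.54, 8.72, 8.32 and 10.18 in LMN, and 10.03, 11.67, 9.93, 9.35 and 10.59 in MMN, for animals 1 to 5. Its IML samples were the closest together of these 3 genes (SD 0.46, against 1.13 for S100a6 and 1.33 for Anxa1), and all lay above the LMN samples. The difference from the somatic mean was 1.44 ± 0.29 (SE, n = 5). It was positive in 4 of 5 animals and was -0.11 in animal 2, whose MMN sample was the highest of the somatic samples. Neither animal that stood apart was the highest IML sample for Ahnak. Their differences from the somatic mean were the largest of the 5 animals, though, at 2.28 in animal 3 and 2.50 in animal 4. Without the IML samples of animals 3 and 4 together the difference was 0.80 ± 0.24.

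**Figure D2:**
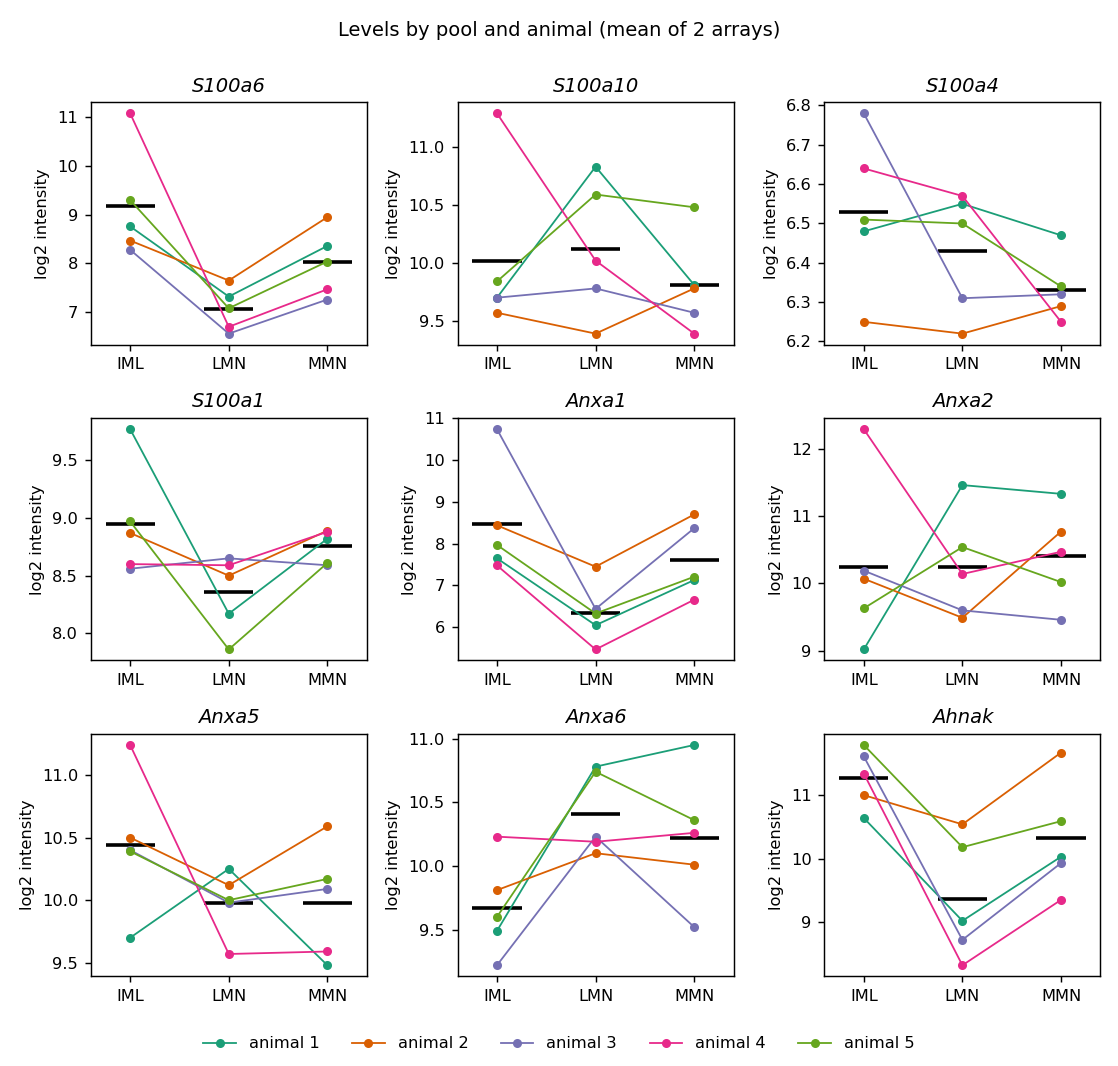
Log2 intensity (mean of 2 arrays) of the 9 measured genes in the IML, LMN and MMN samples. Lines join the samples of an animal and black bars are means of 5 animals; vertical scales differ between panels. S100a6, Anxa1 and Ahnak form a V with LMN at the bottom in each of the 5 animals, while lines cross for S100a10 and Anxa2.

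S100a10 and Anxa2, which encode the partners of one complex, did not share that profile. S100a10 read 9.70, 9.57, 9.70, 11.29 and 9.84 in IML, 10.83, 9.39, 9.78, 10.02 and 10.59 in LMN, and 9.81, 9.78, 9.57, 9.39 and 10.48 in MMN. The 3 pools overlapped, and the IML mean differed from the somatic mean by 0.06 ± 0.28 (SE, n = 5). Both arrays of the IML sample of animal 4 were high for S100a10, at 10.98 and 11.59, and without this sample the difference was -0.33 ± 0.18. The other S100a10 probe set read 7.97 in that sample, within the range of 7.77 to 8.05 over the IML samples, so the probe sets disagreed on it.

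Anxa2 read 9.02, 10.07, 10.19, 12.29 and 9.63 in IML, 11.46, 9.49, 9.60, 10.14 and 10.54 in LMN, and 11.33, 10.77, 9.46, 10.47 and 10.02 in MMN. Its IML samples ran from 9.02 to 12.29, with animal 1 at the bottom and animal 4 at the top. The animals went opposite ways, with a difference between IML and the somatic mean of -2.38 in animal 1 and 1.98 in animal 4. The mean difference was -0.09 ± 0.46 (SE, n = 5), with an interval from -1.10 to 0.93 that leaves room for a change either way. Without the IML sample of animal 4 it was -0.61 ± 0.40. Once the pool means were removed, Anxa2 and S100a10 had a correlation of 0.74 over the 15 samples, and of 0.49 over the 14 samples without the IML sample of animal 4. Samples of an animal share their cord and its processing, so these points are not independent.

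Anxa6, a large annexin of the endosomal and plasma membrane, ran the other way. It read 9.49, 9.81, 9.22, 10.23 and 9.60 in IML, 10.78, 10.10, 10.23, 10.19 and 10.74 in LMN, and 10.95, 10.01, 9.52, 10.26 and 10.36 in MMN. The IML mean was the lowest, by -0.65 ± 0.17 (SE, n = 5) against the somatic mean, and 4 of 5 animals had the lower value in IML. Animal 4 was the exception, at 0.00 after rounding. Without its IML sample the difference was -0.81 ± 0.17.

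Anxa5, the annexin used as a probe for phosphatidylserine on dying cells, ran from 9.70 to 11.24 in IML, from 9.57 to 10.25 in LMN and from 9.48 to 10.59 in MMN. It was higher in IML by 0.46 ± 0.22 (SE, n = 5), with animal 4 at the top, and by 0.16 ± 0.15 without that sample. S100a4, known from fibroblasts and motile cells, ran from 6.25 to 6.78 in IML, from 6.22 to 6.57 in LMN and from 6.25 to 6.47 in MMN, a difference of 0.15 ± 0.07 between IML and the somatic mean, and of 0.07 ± 0.06 without the IML sample of animal 3. S100a1, known in heart muscle for its action on calcium release, was higher in IML by 0.40 ± 0.18, and animal 1 had the highest IML value, 9.77. Without animal 1 the difference was 0.18 ± 0.14, and without the IML samples of animals 3 and 4 it was 0.73 ± 0.19. That S100a1 probe set can bind related transcripts, and the other S100a1 probe sets, which read between 4.53 and 5.18, differed by 0.11 ± 0.05 and 0.03 ± 0.04, so that the S100a1 probe sets disagreed.

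The members were chosen with the IML differences known, so these are a description and nothing is read from their number. Between IML and the somatic mean, 4 of 14 member probe sets had an adjusted p under 0.05 in limma, all higher in IML, where 5.52% of all probe sets did. They were those of S100a6 and Ahnak and 2 of Anxa1. None of the 14 passed with no animal block, with values under 32 set to 32, or without animal 5, and 1 to 2 passed without animal 1, 3 or 4. Against LMN alone there were 5 of 14, the same 4 and Anxa6, which was lower in IML, where 8.98% of all probe sets passed. Against MMN alone there was none of 14, where 0.346% of all probe sets passed, and 6 of the 14 had an unadjusted p under 0.05, as had 12.3% of all. IML was 4.33-fold higher than LMN for S100a6, 4.32-fold for Anxa1 and 3.78-fold for Ahnak. Against MMN the sizes were 2.24-fold, 1.80-fold and 1.94-fold in the same order. Single IML samples carried part of these sizes. Without the IML sample of animal 4, the log2 difference of S100a6 was 1.52 ± 0.22 against LMN, where it was 2.12 ± 0.45 with all samples, and 0.57 ± 0.22 against MMN, where it was 1.16 ± 0.45. Without the IML sample of animal 3, that of Anxa1 was 0.38 ± 0.19 against MMN, where it was 0.85 ± 0.36. These comparisons share the IML samples. Of the 9 genes, 7 had a positive difference between IML and the somatic mean, with a median of 0.40, where 46.4% of all probe sets were positive with a median of -0.008.

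**Figure D3:**
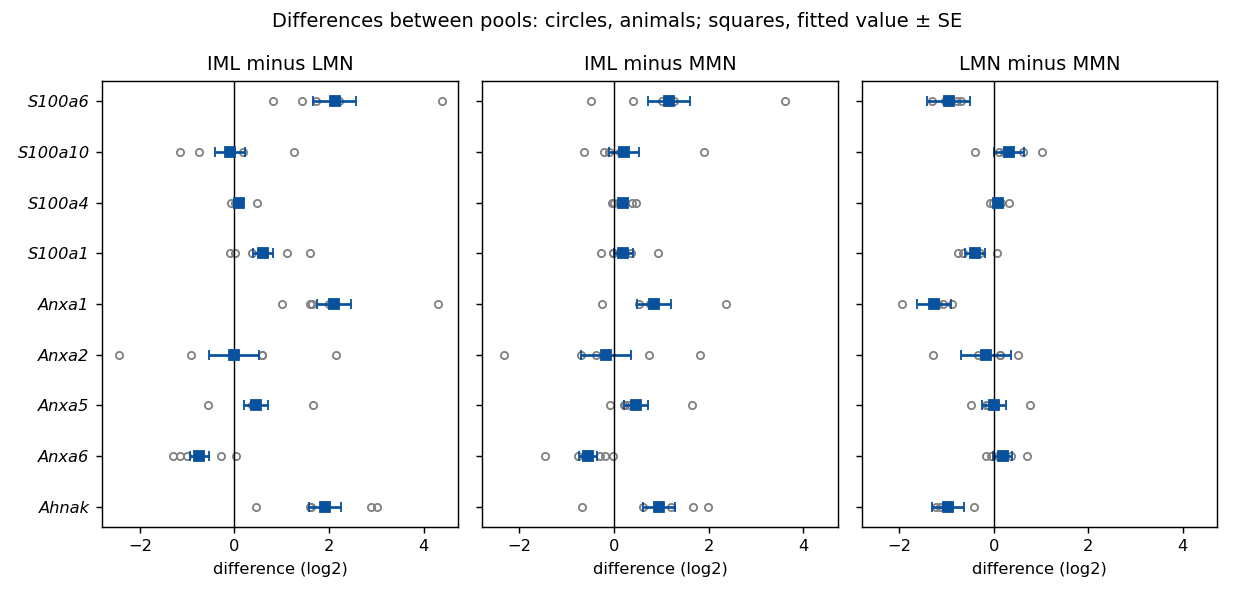
Log2 differences between pools for the 9 genes, IML minus LMN, IML minus MMN and LMN minus MMN. Circles are animals (n = 5) and squares with bars are the fitted difference ± SE of the fit over all 15 samples. In the right panel the circles of S100a6, Anxa1 and Ahnak lie close together and all below 0.

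The members were noticed in comparisons that included the LMN and MMN values, so the comparison of the somatic pools is not independent evidence for them. S100a6, Anxa1 and Ahnak were lower in LMN than in MMN in 5 of 5 animals each. For S100a6 the 5 differences between LMN and MMN lay between -1.30 and -0.70. For Anxa1 they lay between -1.93, in animal 3, and -0.88, and for Ahnak between -1.21 and -0.41. The mean differences were -0.95 ± 0.45 (SE, n = 5) for S100a6, -1.26 ± 0.36 for Anxa1 and -0.96 ± 0.34 for Ahnak. In the limma fit over all 3 pools none of the 14 member probe sets passed, with an adjusted p of 0.45 for S100a6, 0.211 for Anxa1 and 0.29 for Ahnak, where 0.0564% of all probe sets passed. At an unadjusted p under 0.05 there were 4 of 14 member probe sets and 11.6% of all.

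That fit takes 1 spread for the 3 pools, after the level of each animal is removed. For S100a6 the differences within animals had an SD of 1.37 for IML less LMN and 1.53 for IML less MMN. For LMN less MMN it was 0.24. In the same order these SDs were 1.28, 0.96 and 0.40 for Anxa1, and 1.06, 1.05 and 0.32 for Ahnak. In an alternative fit with the LMN and MMN samples alone, 4 of 14 member probe sets passed in limma, all lower in LMN, where 0.539% of all probe sets passed (67 of 12422, 51 of them lower in LMN). S100a6 fell to a mean of 7.06 in LMN, against 8.02 in MMN, a difference of -0.95 ± 0.09 (SE, n = 5), an interval from -1.16 to -0.75 and an adjusted p of 0.0204. Anxa1 fell to 6.35 in LMN, against 7.61 in MMN (-1.26 ± 0.14, adjusted p = 0.0214), and its probe set next in brightness by -1.42 ± 0.12 (adjusted p = 0.0193). Ahnak fell to 9.36 in LMN, against 10.32 in MMN (-0.96 ± 0.11, adjusted p = 0.0241). When only the IML sample of animal 3 was left out of the fit over all pools, 2 Anxa1 probe sets passed, with an adjusted p of 0.0319 for the brightest, where 0.0805% of all probe sets passed. Why the calls differed between these fits was not tested.

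None of the other 6 genes passed between LMN and MMN in either fit. S100a1 differed by -0.40 ± 0.21 (SE, n = 5, adjusted p = 0.487 in limma) and was lower in LMN in 4 of 5 animals. S100a10 differed by 0.32 ± 0.32 (adjusted p = 0.747), Anxa6 by 0.19 ± 0.20 (adjusted p = 0.759) and S100a4 by 0.10 ± 0.08 (adjusted p = 0.706). Anxa2 differed by -0.16 ± 0.53, with an interval from -1.34 to 1.01, and Anxa5 by 0.00 ± 0.25, with an interval from -0.55 to 0.55. These intervals hold sizes that the comparison could not tell from 0.

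Markers of other cells also differed between the pools, by amounts that varied with the list and the comparison. A list of 13 meningeal and fibroblast genes, among them Col1a1, Col1a2, Lum, Dcn and Igf2, was higher in IML than in the somatic mean for 13 of 13 genes, 9 of which passed, with a median of 1.10. Their mean level ran from 8.84 to 10.17 over the IML samples, from 7.50 to 9.28 over LMN and from 8.00 to 10.07 over MMN. Between LMN and MMN, 12 of 13 were lower in LMN with a median of -0.66, none passed in the fit over all pools, and Col3a1, Bgn and Serping1 passed with the somatic pools alone in the fit. Of 12 endothelial and mural genes 10 were lower in LMN, and Vwf, Acta2 and Tagln passed with the somatic pools alone. Against the somatic mean 10 of the 12 were higher in IML and 1 passed. Against MMN alone 5 of the 12 were higher in IML and none passed. Of 14 microglia and macrophage genes, 11 were higher in IML, 6 of which passed. Astrocyte genes were higher in IML for 4 of 5 (1 passed), oligodendrocyte and Schwann cell genes for 6 of 7 and red blood cell genes for 2 of 2, of which none passed. Between LMN and MMN none of these last 4 lists had a gene that passed in either fit. There the medians were -0.08 for microglia and macrophage, -0.1 for astrocyte, -0.06 for oligodendrocyte and Schwann cell and -0.14 for red blood cell genes. In bulk captures, fewer cells of a type and less RNA per cell cannot be told apart.

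Once pool means were removed, Anxa1 had a correlation of 0.80 and Ahnak of 0.78 with the mean level of the 13 meningeal and fibroblast genes over the 15 samples. S100a6 had 0.14, and 0.52 over the 14 samples without the IML sample of animal 4. For Anxa5 these were 0.45 and 0.76. With that list's mean as a covariate in the fit, the difference between IML and the somatic mean was 0.18 ± 0.50 for Anxa1, 0.02 ± 0.39 for Ahnak and 0.24 ± 0.70 for S100a6, and none of the 12422 probe sets passed. It was -1.58 ± 0.86 for Anxa2, -0.82 ± 0.37 for Anxa6 and 0.76 ± 0.37 for S100a1, each further from 0 than without the covariate. For S100a10 it was -0.29 ± 0.59, for S100a4 -0.14 ± 0.12 and for Anxa5 -0.03 ± 0.44. In that fit the difference between LMN and MMN was -0.13 ± 0.53 for S100a6, -0.50 ± 0.38 for Anxa1 and -0.13 ± 0.29 for Ahnak. The list itself differed between the pools, so this fit cannot tell the pool and the list apart. Anxa6 had a correlation of 0.82, S100a10 of 0.70 and Anxa2 of 0.68 with the mean of the 5 motoneuron genes measured out of 8 listed (Slc18a3, Isl1, Prph, Nefh and Ret), and Anxa1 had -0.60. That motoneuron mean ran from 7.88 to 8.57 in IML, from 7.93 to 9.51 in LMN and from 8.23 to 9.25 in MMN. Of these 5 genes, 4 were lower in IML than in the somatic mean and 2 passed, Nefh at -0.83 ± 0.09 and Ret at -0.34 ± 0.07 (SE, n = 5). Slc18a3, the vesicular acetylcholine transporter (-1.33 ± 0.36), Prph (-0.60 ± 0.34) and Isl1 (0.14 ± 0.09) did not pass. Between LMN and MMN, 4 of the 5 were higher in LMN and none passed in either fit. The points of these correlations share arrays and animals.

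**Figure D4:**
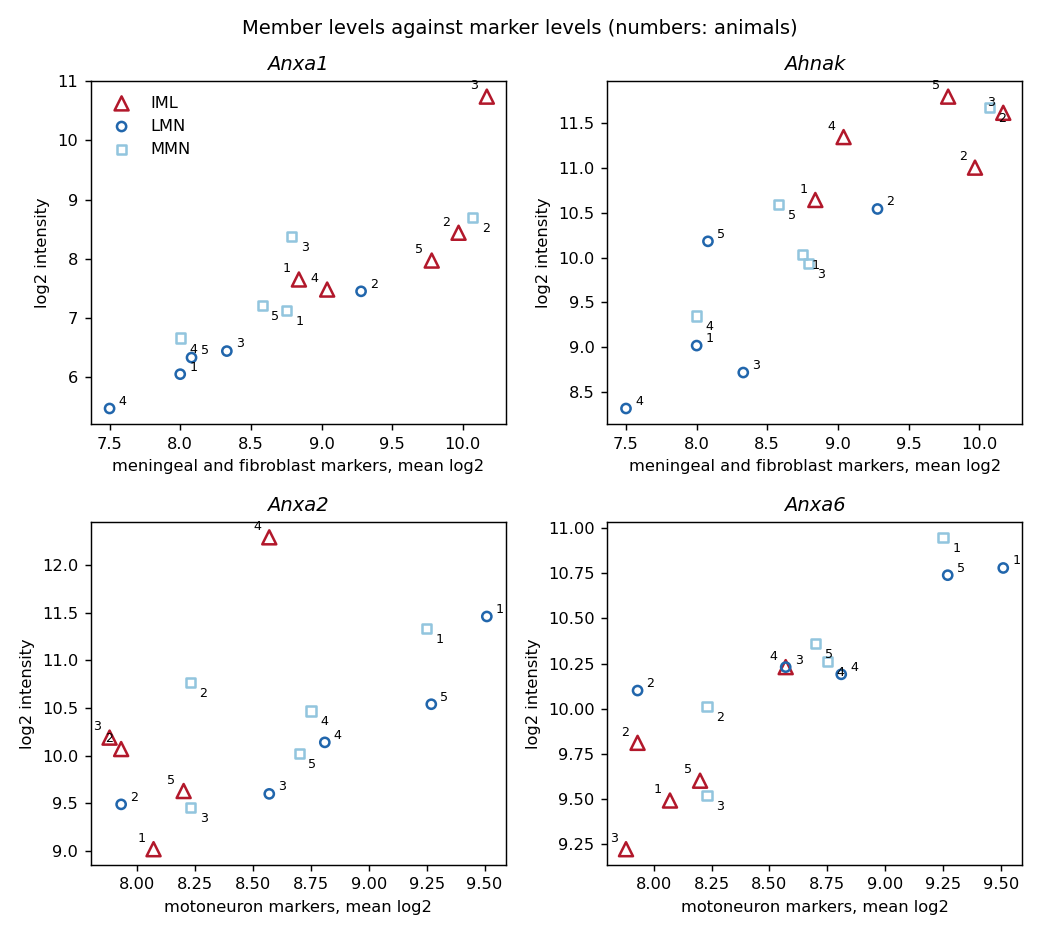
Log2 intensity of Anxa1 and Ahnak against the mean log2 level of 13 meningeal and fibroblast markers (top), and of Anxa2 and Anxa6 against the mean of 5 motoneuron markers (bottom). Triangles are IML, circles LMN and squares MMN samples, numbered by animal. Anxa1 and Ahnak climb with the first list and Anxa6 with the second, and the IML sample of animal 4 lies above the other points for Anxa2.

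Across the 15 samples, the genes most like S100a6 were Fmo1 (Pearson r = 0.94), Osmr (0.93), Cd9 (0.91) and Pqlc3 (0.91). Those most like Anxa1 were Ppic (0.97), Lyz2 (0.94), Srgn (0.93) and Tmod3 (0.92). Lyz2, the lysozyme of macrophages and neutrophils, was highest in the IML sample of animal 3, as was Anxa1. Those most like S100a10 were Serpinb6a (0.93), Shc1 (0.89), Crip2 (0.89) and Aox1 (0.87), and those most like Anxa2 were Jpt1 (0.93), Ilk (0.90), Tubb6 (0.87) and Flot2 (0.86). None of the 4 genes nearest to a member was shared between members. These are descriptions over samples of shared animals.

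Of 19 other S100 and annexin genes, 14 were measured. Between IML and the somatic mean, 2 passed, both higher in IML: Anxa3 by 0.69 ± 0.13 and S100a13 by 0.62 ± 0.16 (SE, n = 5). S100a9 (1.96 ± 0.67) and S100a8 (1.84 ± 0.68), which form calprotectin in neutrophils, had the largest differences but did not pass, and both were highest in the IML sample of animal 3. The mean level of the 14 genes was 7.76 in that sample and 7.29 in the MMN sample of animal 3. The other MMN samples ran from 6.6 to 6.85. Between LMN and MMN none passed in the fit over all pools, and Anxa3, whose difference was -0.78 ± 0.15 (adjusted p = 0.103 in limma), passed with the somatic pools alone. The median difference of the 14 genes was 0.00 between IML and the somatic mean, close to that of all probe sets.

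Of 28 genes of known partners and pathway members, 22 were measured. Pla2g4a, the cytosolic phospholipase that annexin A1 is known to hold back, was higher in IML by 0.65 ± 0.12, and Ryr2, a calcium release channel of the family that S100A1 binds in muscle, was lower by -0.37 ± 0.08 (SE, n = 5). These were the 2 that passed between IML and the somatic mean. Prkca, a calcium-dependent protein kinase, differed by 0.55 ± 0.15 and did not pass. Scn10a, whose channel is carried to the membrane by S100A10, differed by 0.86 ± 0.49 and did not pass, with 9.70 in the IML sample of animal 4, 5.42 to 6.24 in the other IML samples and at most 6.65 in the somatic samples. Between LMN and MMN none of the 22 passed in either fit, and 13 were higher in LMN and 9 lower. Plat, the plasminogen activator that annexin A2 with S100A10 binds on endothelium, differed by -0.43 ± 0.12 (adjusted p = 0.204 in limma). Cacybp went the other way, by 0.39 ± 0.10 (adjusted p = 0.165 in limma). Both were named after their values were seen.

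By the median over samples, the 2 arrays of a sample lay close together for these genes. The median absolute difference between them lay between 0.09 and 0.24 log2 units over the 14 member probe sets, against 0.12 over all probe sets. The largest was 1.17, at the Anxa1 probe set with the lowest values. Brighter probe sets also had samples with wide gaps, up to 1.02 for S100a1, 0.70 for S100a6 and 0.66 for Anxa1. In the IML sample of animal 4 the gap was 0.87 for Anxa5 and 0.62 for S100a10. Over all probe sets the median of each largest difference was 0.40. The spread between animals was wider than that between arrays for S100a6, Anxa1 and Anxa2 in IML, whose SDs over 5 animals were 1.13, 1.33 and 1.23.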

How the data were processed

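Motoneurons of 3 kinds were laser-captured from 5 sham-operated mice, and each RNA sample was hybridised to 2 arrays. The deposited table gives a linear intensity per probe set, from 6.46 to 21091.8. Per the labels, R-pack was used by the authors to normalize the arrays, and logs were then inverted; how R-pack works, and which release it was, is not stated in the labels. Without detection calls, the distance of a dim probe set from background is unknown. Array medians lay between 131.62 and 145.7, and 0 columns of values were left unused. Of 12488 probe sets, 66 controls were dropped, which left 12422 in the tests, 10833 with 1 gene symbol, 396 with several and 1193 with none. Symbols were updated through the gene identifier.

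Log2 values were used, with no offset or filter, and the 2 arrays of a sample were averaged. limma 3.58.1 in R 4.3.3 was fitted over all 15 samples with pool and animal as fixed terms, followed by eBayes. Tests were two-sided, p-values were adjusted by Benjamini-Hochberg across the 12422 probe sets, a probe set passed at an adjusted p under 0.05, and intervals cover 95%. The script was tested on simulated data. Per the labels every animal gave all 3 cell types, which makes the animal a block; deviations from the pool means correlated by at least 0.288 in each of the 15 same-animal pairs. The members and gene lists were chosen with earlier results of these data known. Named are all members, the 4 genes most like each of S100a6, S100a10, Anxa1 and Anxa2, and from the lists of relatives and partners those that passed between LMN and MMN and the 3 with the largest difference between IML and the somatic pools; other genes were named after their values were seen. No exact p is given for the IML differences, in which the members were noticed, though counts and names of those under a threshold are. Alternatives changed the block, the arrays, the scaling, the floor or filter on low values, the variance model, the threshold, the samples and a marker covariate. Those that left out single IML or LMN samples were chosen after seeing the data.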

Additional observations from a re-analysis of the deposited data

Results flagged for a closer look

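Of 42 sets of 5 animals (14 member probe sets in 3 pools), 3 held a sample far from the others by Dixon's ratio, and chance marks about 1 in 20 such sets. The S100a10 value of the IML sample of animal 4 was 11.29, with the nearest other IML sample at 9.84. At a dim S100a1 probe set, animal 1 was the highest sample in IML at 5.01, with the nearest at 4.66, and the highest in MMN at 4.79, with the nearest at 4.63.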

How the results depend on the processing

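The settings below moved a count of member probe sets by over 1.5 times. Between IML and the somatic mean, where 4 passed, the count was 0 with no replicate block, 0 with values under 32 set to 32, 0 with the meningeal and fibroblast covariate and 0 at an adjusted p under 0.01. Leaving out each animal in turn gave 0 to 4, with 1 without animal 1, 2 without animal 3, 2 without animal 4 and 0 without animal 5. It was 2 without the IML sample of animal 3 alone and 0 without the IML samples of animals 3 and 4. Between IML and LMN, where 5 passed, the paired fit without its block gave 1, the floor 3, the covariate 0 and the stricter threshold 3, and leaving out each animal gave 3 (animal 5) to 5. Without the IML samples of animals 3 and 4 that count rose to 7, a shift within 1.5 times, where 444 of all probe sets passed. Between LMN and MMN, where none passed, the count was 4 with these pools alone in the fit, and 2 without the IML sample of animal 3 or those of animals 3 and 4. The difference of Anxa2 between LMN and MMN, -0.16, was 0.71 with the covariate, 0.05 without the LMN sample of animal 2 and -0.33 to 0.11 over the animals left out. That of Anxa5, 3.1e-05, was -0.02 with technical set 1 alone, -0.002 with arrays centred on their medians and -0.19 to 0.12 over the animals left out. The causes of these shifts were not tested. With the covariate, the differences between IML and the somatic mean were 0.24 ± 0.70 for S100a6, 0.18 ± 0.50 for Anxa1 and 0.02 ± 0.39 for Ahnak, each under 1 SE from 0. Those of Anxa2, Anxa6 and S100a1 lay further from 0 with the covariate than without it, with wider SEs. Without detection calls the dim S100a1 probe sets have no known distance from background.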
